A study of Mus musculus with 4 samples.

Results

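Quiescent satellite cells, the stem cells of skeletal muscle, carry transcripts of peptides, a receptor and surface proteins through which they send and receive signals in their niche. The 6 genes described here are *Nppc*, *Edn3* and *Tac4*, which encode peptide precursors, *Chrdl2*, which encodes a secreted protein, and *Calcr* and *Chodl*, which encode proteins of the cell surface. They were listed by this role, of 27998 genes counted, and their unique molecular identifiers (UMIs, each standing for 1 captured RNA molecule) were followed in 4 classes of myogenic cells. ITGA7+/VCAM+/Lin- cells from the lower hindlimbs of 2 mice per strain were pooled into 1 10X Genomics 3′ library. B10 (C57/Bl10ScsSn, 15 weeks by the labels) is the healthy control of *mdx* (C57BL/10ScSn-Dmdmdx, 11 weeks). DBA (DBA/2, 13 weeks) is the healthy control of D2-*mdx* (D2.B10-Dmdmdx, 14 weeks). Mice of the *mdx* and D2-*mdx* strains carry the *mdx* mutation of the dystrophin gene *Dmd* and are models of Duchenne muscular dystrophy (DMD). Every strain is a single library, so strain, age, pool of mice and library cannot be told apart, no test of a difference between strains was possible here. Intervals in parentheses have a confidence level of 95% and cover counting error only.

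In resting muscle, satellite cells lie under the basal lamina of the fibre and stay out of the cell cycle, and after injury they activate, divide and differentiate. *Calcr* encodes the calcitonin receptor, a G protein-coupled receptor of the quiescent cells that signals through cyclic AMP, and collagen V from the satellite cell itself is known as one of its ligands in the niche. *Nppc* encodes C-type natriuretic peptide, which acts on the guanylyl cyclase receptor *Npr2*, and *Edn3* encodes endothelin-3, a ligand of the endothelin receptor *Ednrb*. *Tac4* encodes the precursor of hemokinin-1, a tachykinin that acts on *Tacr1*. *Chrdl2* encodes chordin-like 2, a secreted antagonist of bone morphogenetic proteins (BMPs), and *Chodl* encodes chondrolectin, a membrane protein with a C-type lectin domain.

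On GRCm38, *Nppc* lies on chromosome 1 from 86666291 to 86670571 on the minus strand. *Edn3* lies on chromosome 2 from 174760619 to 174784042, *Tac4* on chromosome 11 from 95261529 to 95269265, *Chrdl2* on chromosome 7 from 100006172 to 100034728 and *Chodl* on chromosome 16 from 78930948 to 78951733, all on the plus strand. *Calcr* lies on chromosome 6 from 3685680 to 3764714 on the minus strand. It holds the microRNA genes *Mir653* and *Mir489*, which are not among the genes counted, and the other 5 genes overlap no other annotated gene. The 6 genes are thus on 6 different chromosomes. Upstream sequences are shown for *Nppc* and *Tac4*, whose levels differed most between healthy and dystrophic cells, for *Chodl*, whose level differed least, and for *Edn3*, which kept the largest part of its level in Myog-positive cells. Each is the 250 bases before the start annotated by RefSeq on GRCm38.p6, with matches to the motifs searched in capitals.
*Nppc*, chr1:86670574-86670823, minus strand: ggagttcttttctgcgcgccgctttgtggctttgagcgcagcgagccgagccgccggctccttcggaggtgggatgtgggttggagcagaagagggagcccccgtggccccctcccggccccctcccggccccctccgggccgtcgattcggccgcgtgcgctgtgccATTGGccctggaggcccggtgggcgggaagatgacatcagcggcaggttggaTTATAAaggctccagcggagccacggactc
*Tac4*, chr11:95261279-95261528, plus strand: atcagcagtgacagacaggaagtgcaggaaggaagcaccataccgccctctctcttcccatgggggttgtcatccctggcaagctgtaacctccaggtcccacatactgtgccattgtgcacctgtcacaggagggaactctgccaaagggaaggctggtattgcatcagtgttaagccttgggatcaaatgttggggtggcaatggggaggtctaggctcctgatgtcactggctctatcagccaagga
*Edn3*, chr2:174760369-174760618, plus strand: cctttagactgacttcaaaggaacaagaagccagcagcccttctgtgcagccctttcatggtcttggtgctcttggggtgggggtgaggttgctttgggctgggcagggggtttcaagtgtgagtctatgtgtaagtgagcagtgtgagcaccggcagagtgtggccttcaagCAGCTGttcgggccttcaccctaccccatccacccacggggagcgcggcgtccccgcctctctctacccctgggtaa
*Chodl*, chr16:78930698-78930947, plus strand: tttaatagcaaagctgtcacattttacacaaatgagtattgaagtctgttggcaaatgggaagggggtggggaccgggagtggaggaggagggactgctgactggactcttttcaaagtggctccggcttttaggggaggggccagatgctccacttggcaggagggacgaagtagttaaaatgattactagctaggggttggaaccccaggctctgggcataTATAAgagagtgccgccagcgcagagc
The motifs searched on both strands were a TATA box spelled TATAA, the box spelled CCAAT, the E-box of the MyoD type spelled CAGCTG, a site of RBPJ spelled GTGGGAA, a site of TEAD spelled GGAATG, a site of AP-1 spelled TGANTCA and the cyclic AMP response element TGACGTCA. They are found in 22.8%, 33.9%, 13.0%, 5.41%, 12.6%, 6.75% and 1.55% of the 32841 upstream windows of the same length, in this order. *Chodl* has TATAA starting 27 bases before its start. *Nppc* has TATAA and its complement in overlapping letters from 30 bases before the start, and the complement of CCAAT from 82 bases. *Edn3* has CAGCTG from 77 bases before its start. *Tac4* and both starts of *Calcr* hold none of these motifs in their windows. A match is a description of the letters and not a binding site, and a window without a match says nothing of the factor.

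The cells kept numbered 4581 in B10, 3279 in DBA, 6313 in *mdx* and 5756 in D2-*mdx*, at median depths of 6666 to 10434 UMIs. Pairs of libraries shared 5 to 16 barcodes. Cells were divided by UMIs of genes other than the 6. Pax7-positive cells, which carry the RNA of the satellite cell factor *Pax7*, were split by the share of their UMIs that came from 12 immediate-early genes such as *Fos*, which are induced within minutes of a stimulus and also by the dissociation of muscle. The cut was the median share, 3.41%, with each library weighted equally. Between 6.34% and 12.6% of the Pax7-positive cells of a library lay within 10% of this cut, so low and high immediate-early cells are ranges of a continuum. Dividing cells had at least 4 of 16 cell-cycle genes, and Myog-positive cells at least 3 UMIs of *Myog*, the factor of terminal differentiation. The classes held 2127 low, 2244 high, 4 dividing and 9 Myog-positive cells in B10, 2203, 1818, 115 and 199 in *mdx*, 1487, 1146, 20 and 20 in DBA, and 1317, 1970, 214 and 216 in D2-*mdx*. In the low class, the 6 myogenic genes used for the gate summed to 1497 to 1992 CPM (counts per 1000000 UMIs of the class). Markers of other types, which the gate limits, were at most 90.9 CPM per list, against 2254 to 63913 CPM in their own cells. The ends of this range rest on 6 fibroblast or tenocyte cells and 1 white blood cell of B10. White blood cells of the other libraries were at 11511.5 to 18636.7 CPM. The 5 myofibre genes summed to 32.2 CPM in B10, 18.4 in DBA, 37.9 in *mdx* and 90.9 in D2-*mdx*, and the 6 pericyte genes to 19.8, 31.5, 30.2 and 53.2 CPM. The 5 white blood cell genes, at 1.21, 2.86, 10.8 and 31.9 CPM, were higher in both dystrophic libraries. The part of these other cells in the comparisons was not tested. *Dmd* was counted in the low class at 359.6 CPM in B10 and 119.6 in *mdx*, and 306 in DBA and 95.2 in D2-*mdx*, lower in both strains labelled as mutant.

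To compare quiescence signals between healthy and dystrophic muscle, the 6 genes were first read in the Pax7-positive cells with low immediate-early genes. All 6 were lower in *mdx* than in B10 and in D2-*mdx* than in DBA. At least 2-fold lower were 5 of the 6 in each comparison, all but *Chodl*, whereas 6.3% of the 8581 genes with at least 10 CPM were as much lower in *mdx* and 6.61% of 8533 in D2-*mdx*. All 6 passed this minimum, *Tac4* in *mdx* over B10 only through the level in B10. The median log2 ratio of the 6 genes was -2.17 for *mdx* over B10 and -1.65 for D2-*mdx* over DBA, against -0.065 and -0.069 over all genes tested. The 6 genes were chosen with earlier results of these libraries known, so this comparison of the list with all genes is a description.

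The peptide genes come first. For *Nppc* in low immediate-early cells, B10 had 1357 CPM (1340.2 to 1374), *mdx* 178 CPM (172 to 184), DBA 1880.3 CPM (1859.6 to 1901) and D2-*mdx* 380.3 CPM (369 to 392). Both healthy libraries were far above both dystrophic ones, and the order DBA, B10, D2-*mdx*, *mdx* held without overlap of the intervals. The gap between *mdx* and B10 was a log2 ratio of -2.93 (-2.98 to -2.88), or 7.64-fold, and that between D2-*mdx* and DBA -2.31 (-2.35 to -2.26), or 4.94-fold. A cell held a median of 8 UMIs of *Nppc* in B10 and 17 in DBA, but 0 in *mdx* and 1 in D2-*mdx*. The dystrophic UMIs were held by fewer cells. The tenth of cells with the most *Nppc* contributed 65.7% of them in *mdx* and 53.2% in D2-*mdx*, whereas it held 34.7% in B10 and 26.9% in DBA.

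For *Edn3*, B10 had 492 CPM (481 to 502), *mdx* 129 CPM (124 to 134), DBA 479 CPM (468 to 489) and D2-*mdx* 167 CPM (159.5 to 174). The 2 healthy libraries did not differ beyond counting error, at a log2 ratio of -0.039 (-0.082 to 0.005) for DBA over B10, and both stood above the dystrophic libraries. Relative to the control, the log2 ratio was -1.93 (-1.99 to -1.87) for *mdx* but -1.52 (-1.59 to -1.45) for D2-*mdx*, or 3.81-fold and 2.87-fold lower.

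*Tac4* differed most of the 6. Its 1154 UMIs in 2127 B10 cells gave 63.4 CPM (59.8 to 67.1), and its 21 UMIs in 2203 *mdx* cells gave 1.03 CPM (0.637 to 1.57). DBA had 119.7 CPM (115 to 125) from 2007 UMIs, and D2-*mdx* 15.5 CPM (13.3 to 17.9) from 183. The order was DBA, B10, D2-*mdx*, *mdx*, with each step larger than counting error. The log2 ratio of *mdx* over B10 was -5.94 (-6.64 to -5.33), or 61.6-fold lower, and that of D2-*mdx* over DBA -2.95 (-3.18 to -2.73), or 7.74-fold lower.

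For *Chrdl2*, the BMP antagonist, B10 had 394 CPM (385 to 404), *mdx* 74.3 CPM (70.6 to 78.1), DBA 318 CPM (309.8 to 327) and D2-*mdx* 92.7 CPM (87.3 to 98.3). Relative to the controls, the log2 ratio was -2.41 (-2.49 to -2.33) in *mdx* and -1.78 (-1.87 to -1.69) in D2-*mdx*, or 5.31-fold and 3.43-fold lower. For the receptor gene *Calcr*, B10 had 99.3 CPM (94.8 to 104), *mdx* 49.0 CPM (46.0 to 52.1), DBA 78.2 CPM (74.1 to 82.6) and D2-*mdx* 37.5 CPM (34.1 to 41.2). *Calcr* was thus just past 2-fold in both comparisons, with log2 ratios of -1.02 (-1.13 to -0.91) and -1.06 (-1.22 to -0.90). Both intervals include 2-fold. Of 9 other ways of processing, 4 left *mdx* past 2-fold and 5 left D2-*mdx* past 2-fold, and the ratios ranged from -1.22 to -0.57 in *mdx* and from -1.20 to -0.72 in D2-*mdx*.

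*Chodl* kept most of its level. B10 held 1599 CPM (1581 to 1617), *mdx* 1113 CPM (1099 to 1128), DBA 1519.7 CPM (1501 to 1538) and D2-*mdx* 819 CPM (803 to 836). The order B10, DBA, *mdx*, D2-*mdx* differs from that of the peptides, and the log2 ratios to the controls were -0.52 (-0.55 to -0.50) and -0.89 (-0.93 to -0.86). *Pax7* itself, which gates these cells, had ratios of -0.95 (-0.99 to -0.91) and -0.50 (-0.54 to -0.45).

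**Figure D1:**
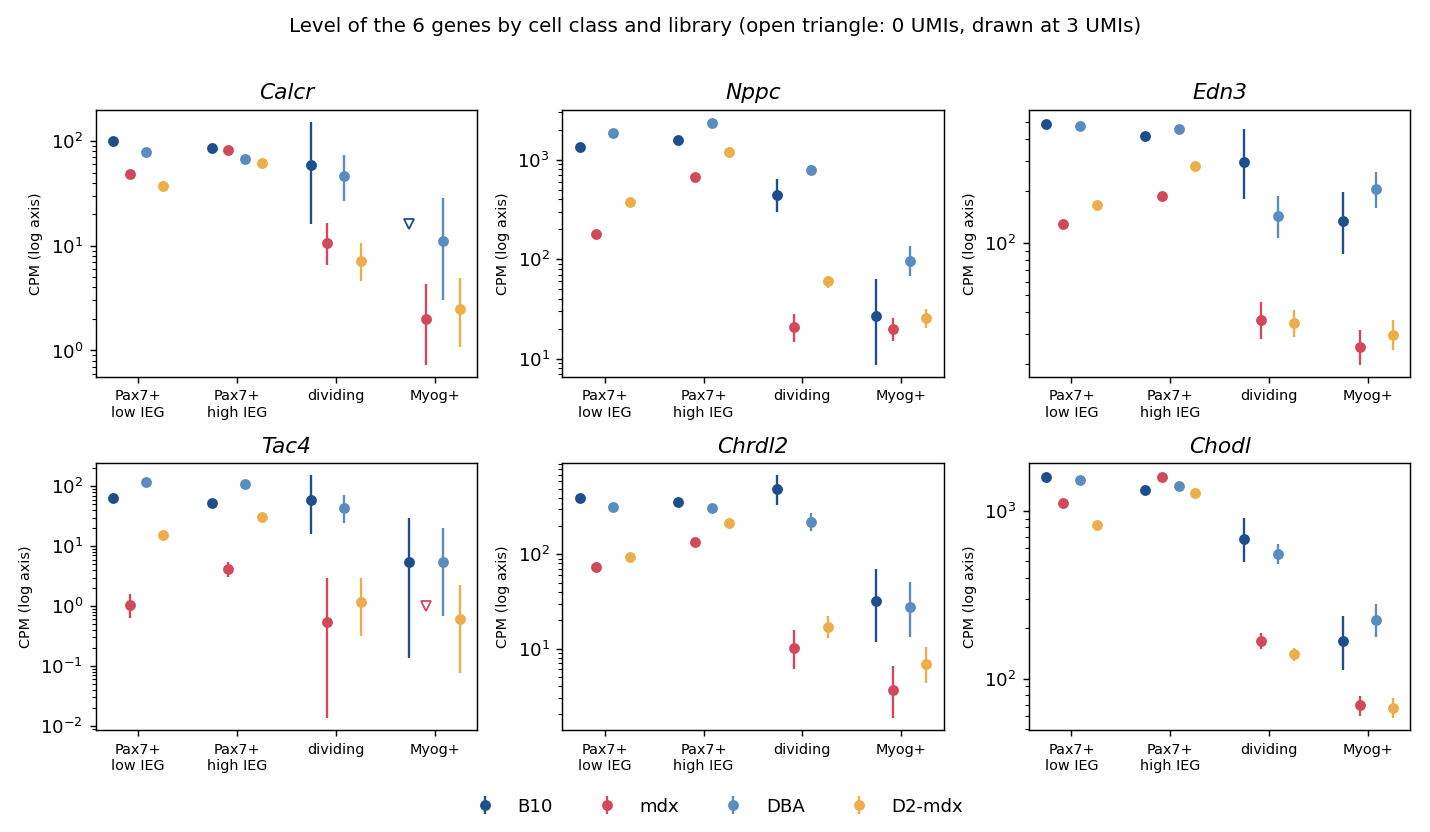
Level of each gene in CPM (log axis) in the 4 cell classes, with a point per library and bars for the 95% Poisson interval; IEG stands for immediate-early genes and an open triangle for 0 UMIs, drawn at 3 UMIs. In Pax7+ low IEG cells both dystrophic libraries lie below both healthy ones for all 6 genes, between *mdx* and B10 most for *Tac4*, at 1.03 against 63.4 CPM, and least for *Chodl*, at 1113 against 1599 CPM.

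To ask whether the same differences were seen in cells with high immediate-early genes, the comparisons were repeated there. The median log2 ratio of the 6 genes was -1.19 for *mdx* over B10 and -0.62 for D2-*mdx* over DBA. At least 2-fold lower in *mdx* were 4 of the 6, against 3.48% of all genes, and in D2-*mdx* 1 of the 6, against 3.39%. *Tac4* was past 2-fold in both comparisons, at 51.8 CPM in B10 and 4.12 in *mdx*, and 108 in DBA and 31.0 in D2-*mdx*. The log2 ratios were -3.65 (-4.09 to -3.24) and -1.79 (-1.96 to -1.63). *Nppc*, at 1589, 676, 2370.0 and 1204 CPM in the same order of libraries, had ratios of -1.23 (-1.27 to -1.20) and -0.98 (-1.01 to -0.95). The gap of *Nppc* between healthy and dystrophic cells was thus smaller than in the low class in both backgrounds.

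Endothelin-3 transcripts were at 415, 189, 459.6 and 281 CPM in high immediate-early cells of B10, *mdx*, DBA and D2-*mdx*, and *Edn3* had log2 ratios of -1.14 (-1.20 to -1.07) and -0.71 (-0.77 to -0.65). *Chrdl2*, at 361, 136, 311 and 216 CPM, had ratios of -1.40 (-1.48 to -1.33) and -0.53 (-0.60 to -0.46). The intervals of *Calcr* included 0 in both comparisons, at -0.073 (-0.19 to 0.040) and -0.13 (-0.27 to 0.016), which bounds any lower level to a log2 ratio of -0.19 in *mdx* and -0.27 in D2-*mdx* as far as counting error goes. *Chodl* was higher in *mdx* than in B10, at 1605 against 1342 CPM (a log2 ratio of 0.26, interval 0.23 to 0.28), and slightly lower in D2-*mdx* than in DBA, at 1285 against 1415 CPM (-0.14, interval -0.17 to -0.11). In high immediate-early cells, then, the log2 ratios of the surface genes lay between -0.14 and 0.26, and those of the 4 secreted genes between -3.65 and -0.53.

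**Figure D2:**
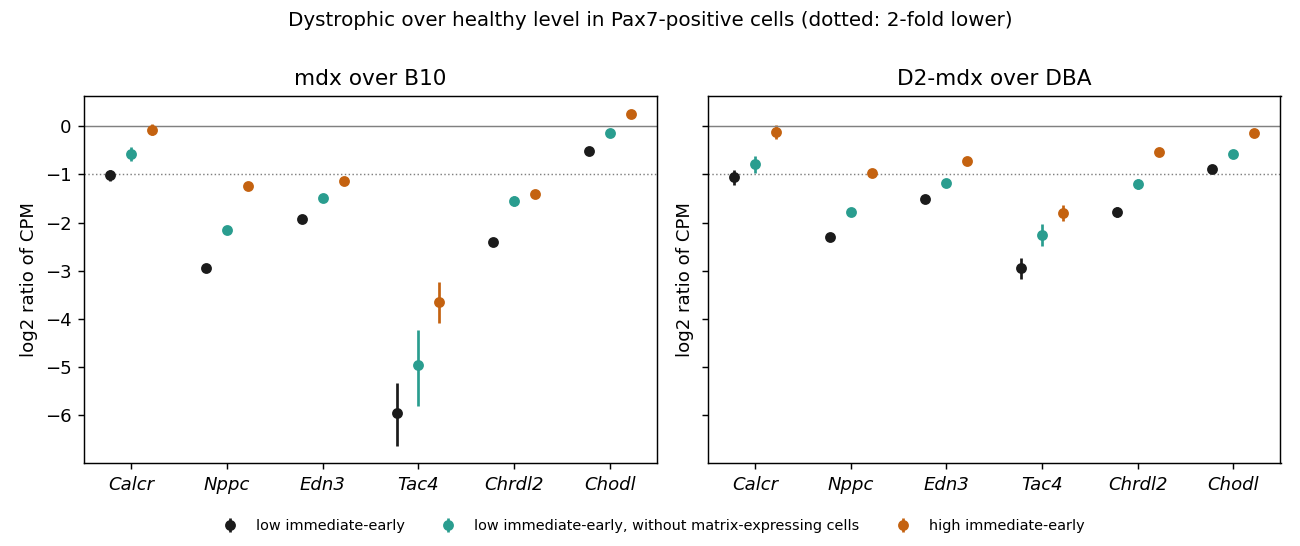
Log2 ratio of CPM, dystrophic over healthy, for each gene in Pax7-positive cells with low immediate-early genes, the same without matrix-expressing cells, and with high immediate-early genes; bars are 95% counting intervals and the dotted line marks a 2-fold lower level. *Tac4* lies lowest in both panels, at -5.94 in *mdx* and -2.95 in D2-*mdx* in low immediate-early cells, and the *Calcr* and *Chodl* points of the high immediate-early cells lie within 0.26 of 0.

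Within a library, high and low immediate-early cells were then set side by side. In B10, 5 of the 6 genes were slightly lower in the high class and *Nppc* was higher. In DBA 4 were lower, *Nppc* was higher and *Chrdl2*, at -0.032 (-0.093 to 0.028), did not differ beyond counting error. The log2 ratios lay between -0.29 for *Tac4* and 0.23 for *Nppc* in B10, and between -0.23 for *Calcr* and 0.33 for *Nppc* in DBA. In both dystrophic libraries all 6 genes were higher in the high class. *Nppc* had log2 ratios of 1.93 (1.87 to 1.98) in *mdx* and 1.66 (1.61 to 1.71) in D2-*mdx*, *Tac4* of 2.0 (1.24 to 2.81) and 1.00 (0.75 to 1.27) and *Chrdl2* of 0.88 (0.78 to 0.98) and 1.22 (1.12 to 1.32). *Calcr* had 0.74 and 0.71, *Edn3* 0.55 and 0.75 and *Chodl* 0.53 and 0.65.

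The depth of the classes moved with this result. The median was 8146 UMIs per cell in the low class and 5959 in the high class of *mdx*, and 7476 and 5645 in D2-*mdx*. In B10 it was 7806 and 8941, and in DBA 10376 and 10142. As UMIs per cell rather than CPM, *Chodl* was at 10.3 in low and 10.5 in high cells of *mdx* and at 7.36 and 8.09 in D2-*mdx*. *Edn3* was at 1.20 and 1.23 in *mdx* and at 1.5 and 1.77 in D2-*mdx*. Per cell, these 2 genes were thus nearly level between the classes of *mdx* and slightly higher in the high class of D2-*mdx*. *Nppc* remained higher in the high class, at 1.65 and 4.42 UMIs per cell in *mdx* and at 3.42 and 7.58 in D2-*mdx*. *Calcr* was at 0.453 and 0.536 in *mdx* and at 0.337 and 0.385 in D2-*mdx*.

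The low class of the dystrophic libraries also held many cells with markers of a population enriched in dystrophic muscle. They are called matrix-expressing here as a label for their gate, since not all of its 6 genes encode matrix proteins. These are cells with at least 2 of *Col1a2*, *Cited1*, *Gpc3*, *Gper1*, *Mgp* and *Postn*. The study found a population enriched in *mdx* and D2-*mdx* in these same libraries, with *Col1a2* and *Postn* among its genes. An excess of such cells there is therefore a description. They made up 0.658% of low immediate-early cells in B10 and 50.7% in *mdx*, and 1.01% in DBA and 32.2% in D2-*mdx*. In the high class they made up 0.802%, 18.7%, 0.960% and 8.63%. They were deeper than the other low cells, with medians of 11035 against 5699 UMIs in *mdx* and 11523.5 against 6431 in D2-*mdx*, and a deeper cell passes a threshold on detected genes more easily.

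In the low class of *mdx* and D2-*mdx*, all 6 genes were lower in CPM in the matrix-expressing cells. *Nppc* was at 106 CPM in them and 305 CPM in the other low cells of *mdx*, and at 161 and 548 CPM in D2-*mdx*, log2 ratios of -1.53 (-1.62 to -1.43) and -1.77 (-1.88 to -1.66). *Chrdl2* was at 40.2 and 135 CPM in *mdx* and at 31.6 and 139 CPM in D2-*mdx*, ratios of -1.75 and -2.14. These were the largest gaps apart from *Tac4*, which had 6 and 15 UMIs in the 2 groups of *mdx* and 14 and 169 in D2-*mdx*, where its ratio was -3.21 (-4.11 to -2.42). *Edn3* had ratios of -0.75 in *mdx* and -0.99 in D2-*mdx*, *Calcr* of -0.80 and -0.73 and *Chodl* of -0.65 and -0.86. *Pax7* differed less, at -0.34 and -0.32. In the high class the gap was smaller. *Nppc* had ratios of -0.89 and -0.92 there, whereas those of *Calcr*, at -0.036 (-0.25 to 0.18) and 0.0064 (-0.34 to 0.34), had intervals that included 0. Per cell, the low class read otherwise for some genes. Its 1116 matrix-expressing and 1087 other cells of *mdx* held 505 and 494 UMIs of *Calcr*, close to level per cell. They held 1353 and 1282 of *Edn3* and 12057 and 10657 of *Chodl*, not lower per cell. *Nppc*, at 1385 and 2241, was lower either way. In D2-*mdx*, 424 and 893 cells held 140 and 304 of *Calcr*, 549 and 1425 of *Edn3* and 2870 and 6826 of *Chodl*.

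Without the matrix-expressing cells, all 6 genes were still lower in the low class of the dystrophic libraries. The log2 ratio of *mdx* over B10 became -2.16 for *Nppc*, -1.5 for *Edn3*, -4.97 for *Tac4* and -1.55 for *Chrdl2*, each past 2-fold. It became -0.57 for *Calcr* and -0.14 for *Chodl*. In D2-*mdx* over DBA the 4 secreted genes also stayed past 2-fold, from -2.26 for *Tac4* to -1.18 for *Edn3*. The log2 ratios of high over low cells also came closer to 0 without them. In *mdx* they became 1.32 for *Nppc*, 1.3 for *Tac4*, 0.22 for *Chrdl2*, 0.16 for *Edn3*, 0.29 for *Calcr* and 0.17 for *Chodl*. In D2-*mdx* they became 1.21, 0.39, 0.69, 0.42, 0.43 and 0.33, and all 12 values kept their direction.

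**Figure D3:**
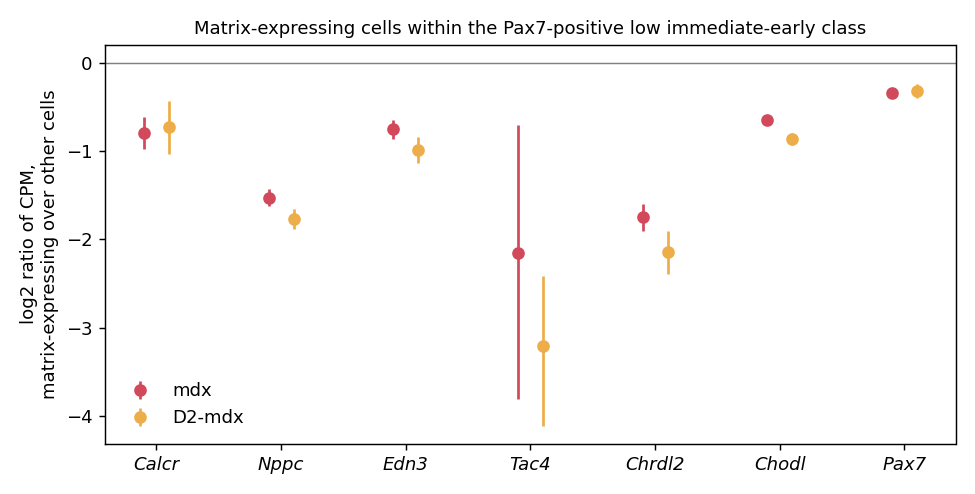
Log2 ratio of CPM in matrix-expressing over other cells of the Pax7-positive low immediate-early class, for the 6 genes and *Pax7* in *mdx* and D2-*mdx*; bars are 95% counting intervals. All points lie below 0, with *Nppc* at -1.53 and -1.77 and *Pax7* at -0.34 and -0.32, and the wide bar of *Tac4* in *mdx* rests on 21 UMIs.

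The backgrounds also differed. D2-*mdx* was above *mdx* in low immediate-early cells for *Tac4*, by 15.0-fold, a log2 ratio of 3.91 (3.25 to 4.64), and for *Nppc*, by 2.14-fold, a log2 ratio of 1.10 (1.03 to 1.16). These 2 of the 6 were at least 2-fold higher, against 1.6% of the 8204 genes tested, and *Tac4* passed the minimum of 10 CPM only through D2-*mdx*, where it is higher. In high immediate-early cells D2-*mdx* was again above *mdx*, by 7.53-fold for *Tac4* and 1.78-fold for *Nppc*. In low immediate-early cells *Edn3* and *Chrdl2* were higher by less, at log2 ratios of 0.37 and 0.32, and *Calcr* and *Chodl* were lower, at -0.38 and -0.44. The healthy pair of the low class differed in the same direction for both peptides and by less. DBA over B10 had a log2 ratio of 0.92 (0.81 to 1.02) for *Tac4*, 0.47 (0.45 to 0.49) for *Nppc*, -0.34 for *Calcr*, -0.31 for *Chrdl2* and -0.073 for *Chodl*.

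To follow the genes as cells leave quiescence, their levels in dividing and Myog-positive cells were set against low immediate-early cells of the same library. The B10 and DBA classes hold 4 to 20 cells each, and the comparison rests on *mdx* and D2-*mdx*. Dividing and Myog-positive cells of *mdx* were deeper than its low cells, at medians of 16704 and 14306 against 8146 UMIs. In D2-*mdx* the medians were 15704 and 13317 against 7476. Per cell, the levels were therefore lower by less than in CPM. At least 2-fold lower in dividing cells of both libraries were 5 of the 6 genes, against 5.93% of 8195 genes, and in Myog-positive cells again 5 of the 6, against 9.86%. The minimum of 10 CPM was read in the low class only, the side where the 6 genes are higher, so these counts are a description. *Tac4* passed this minimum only through D2-*mdx*. *Tac4* was the gene outside these counts, since *mdx* had 21 UMIs in its low class, 1 in dividing cells and 0 in Myog-positive cells, where 3 UMIs would be 1.03-fold below its level in the low class.

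*Chodl* was at 168 CPM (150.1 to 188) in dividing and 69.2 CPM (60.1 to 79.3) in Myog-positive cells of *mdx*, and at 140.4 and 66.9 CPM in D2-*mdx*. That is 15.1% and 6.22% of the level of the low class in *mdx*, and 17.1% and 8.16% in D2-*mdx*. Pericytes held 27.2 and 42.5 CPM of *Chodl* in *mdx* and D2-*mdx*, but glial or Schwann cells 269 and 212 CPM and white blood cells 298 and 186 CPM. In both classes *Chodl* was therefore not above the level of the latter types. *Calcr* was at 10.6 CPM in dividing and 1.997 CPM in Myog-positive cells of *mdx*, from 20 and 6 UMIs, and at 7.19 and 2.48 CPM in D2-*mdx*, from 25 and 8. In Myog-positive cells the level of *Calcr* was within the intervals of that in pericytes, 2.13 CPM (1.06 to 3.8) in *mdx* and 1.94 CPM (1.09 to 3.20) in D2-*mdx*, so none could be told from background there. Glial or Schwann cells held 15.1 and 7.25 CPM of *Calcr* in *mdx* and D2-*mdx*, and white blood cells 28.1 and 13.5 CPM. In dividing cells *Calcr* was therefore not above the level of these types either.

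Of the secreted genes, *Nppc* was at 20.8 CPM (14.8 to 28.4) in dividing and 19.97 CPM (15.2 to 25.7) in Myog-positive cells of *mdx*, which were level with each other. In D2-*mdx* it was at 59.8 CPM (52.0 to 68.5) and 25.4 CPM (20.2 to 31.5), higher in the dividing cells. Pericytes held 11.8 and 18.9 CPM of *Nppc* in *mdx* and D2-*mdx*, but glial or Schwann cells 63.6 and 140 CPM and white blood cells 77.5 and 176 CPM. *Chrdl2* was at 10.1 and 3.66 CPM in *mdx* and 17.0 and 6.81 CPM in D2-*mdx*. Pericytes held 1.55 and 9.06 CPM of it, but glial or Schwann cells 25.4 and 33.1 CPM. In both classes, *Nppc* and *Chrdl2* were therefore not above the level of glial or Schwann cells. *Edn3* kept the most, at 36.2 CPM (28.1 to 45.9) in dividing and 25.3 CPM (19.9 to 31.7) in Myog-positive cells of *mdx*, and 34.5 CPM (28.6 to 41.3) and 29.7 CPM (24.1 to 36.3) in D2-*mdx*. In Myog-positive cells this was 19.6% and 17.8% of the low class, where *Pax7* was at 9.13% and 11.9%. Pericytes held less *Edn3*, at 1.93 CPM in *mdx* and 9.06 CPM in D2-*mdx*, but glial or Schwann cells held 28.9 and 61.2 CPM and white blood cells 30.0 and 36.6 CPM. The *Edn3* of Myog-positive cells was therefore not above the level seen in these other types. In the healthy libraries *Edn3* was at 134 CPM (87.0 to 198) in the 9 Myog-positive cells of B10 and 205 CPM (161 to 257) in the 20 of DBA, above both dystrophic libraries. Both intervals included the level of glial or Schwann cells, 158 CPM in B10 and 175 in DBA. That of DBA also included the 251 CPM of its white blood cells, so *Edn3* could not be told from these types here either.

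These ratios depended on the gates. With a lower limit of 500 genes in a cell and the upper one dropped, which admits more dividing cells, the ratios of dividing over low cells were lower still, for instance -3.08 for *Edn3* and -3.95 for *Nppc* in *mdx*, against -1.84 and -3.10. With gates read at 3000 UMIs per cell, *Nppc* in Myog-positive cells was at -5.84 in *mdx* and -5.15 in D2-*mdx*, against -3.15 and -3.91.

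**Figure D4:**
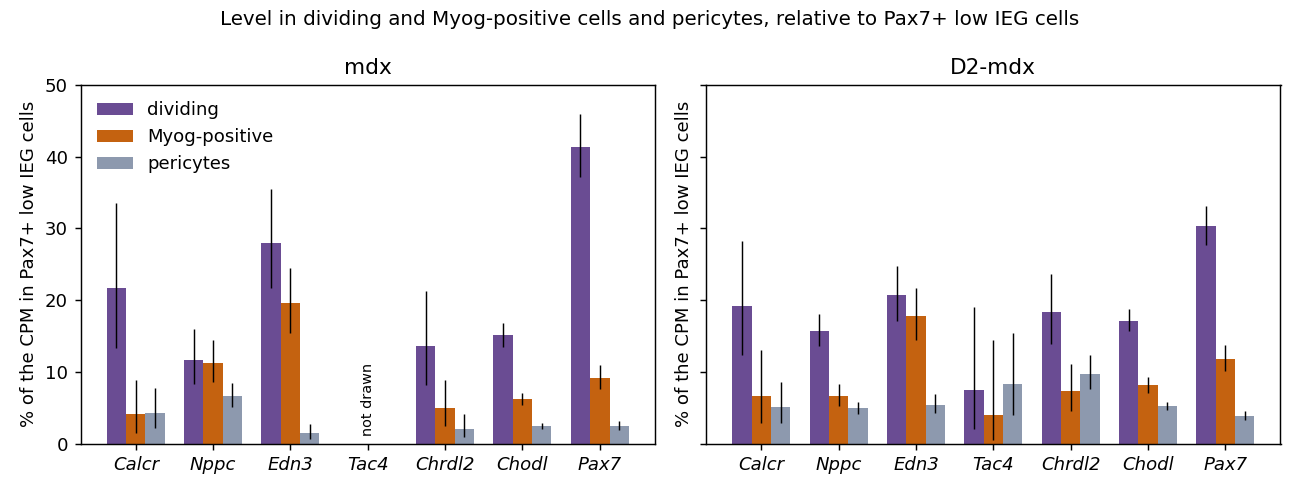
Level of each gene in dividing cells, Myog-positive cells and pericytes as a percentage of its CPM in Pax7+ low IEG (immediate-early gene) cells of the same library, with 95% Poisson intervals of the numerator; *Tac4* in *mdx* has too few UMIs and is not drawn. *Edn3* stands highest of the 6 genes in Myog-positive cells, at 19.6% in *mdx* and 17.8% in D2-*mdx*, whereas *Chodl* is at 6.22% and 8.16%. Glial or Schwann and white blood cells are not drawn.

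Shares of cells with a UMI were read at an equal depth of 3000 UMIs per cell. Of the cells whose shares follow, this left out 22 low and 13 high cells, 2 pericytes and 2 glial or Schwann cells of B10. *Chodl* was detected in 96.1% (95.2 to 96.9) of low immediate-early cells in B10 and 83.2% (81.5 to 84.7) in *mdx*, with 96.6% (95.5 to 97.4) for DBA and 76.1% (73.7 to 78.4) for D2-*mdx*. Its share in pericytes was 9.68%, 6.25%, 9.59% and 7.16% at median depths of 10587, 8024, 11058 and 6863 UMIs before thinning. In glial or Schwann cells it was larger, at 31.25%, 21.8%, 59.0% and 23.3%. In high immediate-early cells the share of *Chodl* was 95.7%, 96.7%, 96.1% and 92.99%, so that nearly every such cell carried it whatever the strain.

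*Nppc* was found in 78.9% (77.1 to 80.6) of low cells in B10 and 26.7% (24.9 to 28.6) in *mdx*, with 91.5% (89.99 to 92.9) for DBA and 40.4% (37.7 to 43.1) for D2-*mdx*, and in 10.8%, 0.962%, 8.10% and 3.73% of pericytes. In glial or Schwann cells its share was 15.6%, 6.50%, 53.8% and 12.2%. *Edn3* was found in 73.3%, 31.6%, 71.5% and 38.0% of low cells, and *Chrdl2* in 57.9%, 20.6%, 57.0% and 23.2%. The healthy shares of these 3 genes were each above the dystrophic ones, and the intervals did not overlap. For *Calcr* the shares were 26.0%, 15.8%, 21.9% and 12.0%, with 1.08%, 0.801%, 0.426% and 0.706% in pericytes and 3.125%, 3.94%, 5.13% and 2.51% in glial or Schwann cells. *Tac4* was detected in 12.8% (11.4 to 14.3) and 26.0% (23.7 to 28.3) of the healthy low cells, in 4.63% (3.56 to 5.91) of D2-*mdx* cells, and in 7 of 2203 *mdx* cells, 0.318% (0.128 to 0.654). This is close to its share in *mdx* pericytes, 0 of 624 cells, whose interval reaches 0.589%. Without thinning the shares were higher, for instance 25.9% and 55.5% for *Tac4* in B10 and DBA and 50.02% for *Calcr* in B10.

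Counted over all 6 genes at 3000 UMIs, a low immediate-early cell held a median of 4 of them in B10 and DBA and 2 in *mdx* and D2-*mdx*. Cells with none of the 6 made up 0.618% (0.329 to 1.05) of the low class in B10, 0.538% (0.233 to 1.06) in DBA, 12.1% (10.8 to 13.6) in *mdx* and 17.7% (15.7 to 19.9) in D2-*mdx*. In the high class they made up 0.224%, 0%, 1.49% and 2.23%. Cells with 5 of the 6 were 15.4% of the low class of B10 and 16.9% of that of DBA, but 1.72% in *mdx* and 3.34% in D2-*mdx*.

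**Figure D5:**
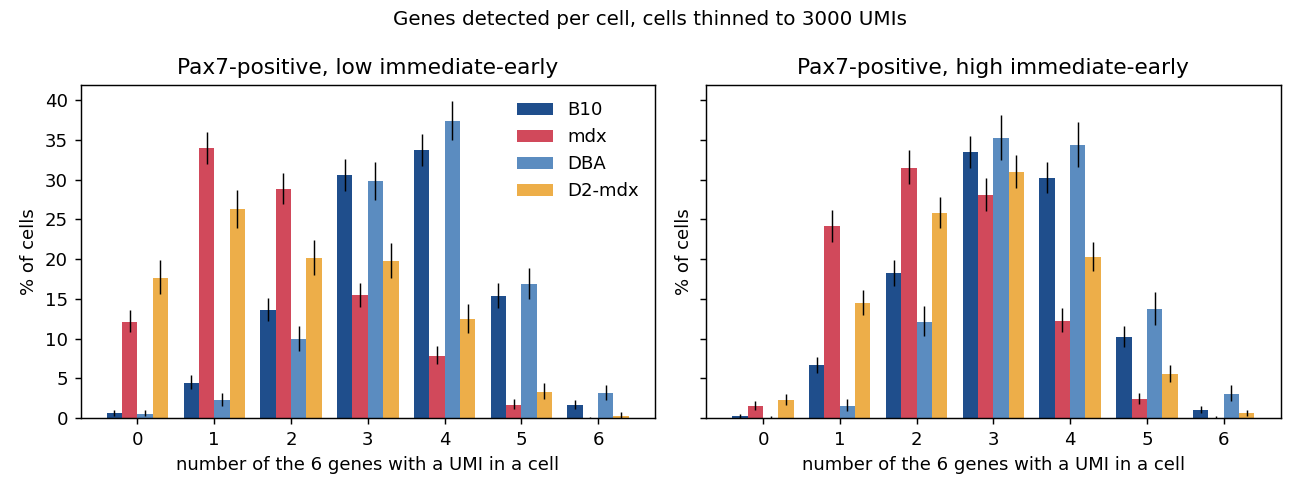
Share of cells (%) by how many of the 6 genes had a UMI, after thinning to 3000 UMIs per cell, in Pax7-positive cells with low (left) and high (right) immediate-early genes; bars are libraries with 95% binomial intervals. In the left panel the healthy libraries peak at 4 genes and the dystrophic ones at 1, and 12.1% of *mdx* and 17.7% of D2-*mdx* cells carry none.

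Detection of the genes in the same low cell was then read by pairs, 2 of which are given first. In D2-*mdx*, *Nppc* was detected in 61.0% (56.6 to 65.3) of the low cells with an *Edn3* UMI and in 27.8% (24.7 to 31.0) of those without. In *mdx* the shares were 38.1% (34.5 to 41.8) and 21.4% (19.4 to 23.6). The healthy libraries differed less, with 81.6% (79.6 to 83.5) and 71.4% (67.4 to 75.1) in B10 and 93.2% (91.5 to 94.7) and 87.3% (83.7 to 90.3) in DBA. *Calcr* was likewise found in 17.4% (14.2 to 21.01) of D2-*mdx* cells with *Edn3* and 8.69% (6.85 to 10.8) without it, and in 23.0% (19.9 to 26.3) and 12.4% (10.8 to 14.2) in *mdx*. In B10 these shares were 27.1% (24.9 to 29.4) and 23.1% (19.7 to 26.8), and in DBA 22.3% (19.8 to 24.9) and 20.99% (17.2 to 25.2). Other pairs had another order in percentage points. *Nppc* was found in 80.0% (78.2 to 81.7) of B10 cells with *Chodl* and 51.2% (39.9 to 62.4) of the 82 cells without it. In *mdx* the shares were 30.5% (28.4 to 32.6) and 8.09% (5.52 to 11.3), a narrower gap in percentage points. Relative to the share without *Chodl*, the gap of *mdx* was the wider of these. D2-*mdx*, however, had the widest gap for this pair, at 49.7% (46.6 to 52.8) and 10.8% (7.59 to 14.8). DBA had 92.3% (90.8 to 93.7) and 68.6% (54.1 to 80.9). These are counts over cells of 1 library each, and how the libraries differ in them was not tested.

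Outside the myogenic cells, the 6 genes were counted at 1.5% to 10.8% of the low-class level in pericytes, apart from 18.8% for *Tac4* in *mdx*, which rests on 1 UMI. The 34 B10, 431 *mdx*, 39 DBA and 279 D2-*mdx* cells called glial or Schwann held more. White blood cells of *mdx* and D2-*mdx* held *Nppc* at 43.6% and 46.4% of the low class and *Calcr* at 57.4% and 36.1%. In glial or Schwann cells *Nppc* was at 26.4% of the low class in B10 and 35.8% in *mdx*, and 37.7% in DBA and 36.8% in D2-*mdx*, and *Pax7* at 23.8%, 18.0%, 33.4% and 23.2%. *Pax7* was thus counted in these cells as well. For each UMI of *Pax7*, the glial or Schwann cells held 1.75 of *Nppc* in B10 and 3.29 in DBA, and the low satellite cells 1.58 and 2.92. In *mdx* and D2-*mdx* the glial or Schwann cells held 0.795 and 1.32, and the low satellite cells 0.399 and 0.832. The high satellite cells held 8031 UMIs of *Nppc* and 7515 of *Pax7* in *mdx*, and 14935 and 8580 in D2-*mdx*. That is more *Nppc* for each *Pax7* UMI than in the low cells of these libraries. The part of satellite cell RNA or of doublets in these values was not tested. B10 further has 4278 deposited barcodes with under 500 genes, left out here, in which *Nppc* was at 367, *Chodl* at 650.1 and *Pax7* at 330.2 CPM.

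The partners of these signals were listed by pathway, with earlier results of these libraries known, so their counts against all genes are a description. Of the calcitonin family and cyclic AMP genes, 8 of 15 reached 10 CPM in the low class, and 3 were at least 2-fold lower in each disease comparison, against 6.3% of all genes in *mdx* and 6.61% in D2-*mdx*. They were *Calcrl*, a receptor related to *Calcr*, and *Crem* and *Pde4b*, which respond to cyclic AMP. *Calcrl* passed the minimum only through the healthy libraries, at 11.9 CPM in B10 and 27.3 in DBA. *Calcrl* had log2 ratios of -2.30 (-2.78 to -1.85) in *mdx* and -5.75 (-7.21 to -4.62) in D2-*mdx*, *Crem* of -1.48 and -1.82 and *Pde4b*, a phosphodiesterase that degrades cyclic AMP, of -1.35 and -1.08. *Ramp2*, a subunit that pairs with these receptors, was higher, at 103 CPM in B10 and 195 in *mdx*, and 100.1 in DBA and 189.8 in D2-*mdx*. The kinase genes *Prkaca*, with log2 ratios of 0.092 and 0.13, and *Prkacb*, with 0.074 and -0.045, differed little. *Gnas*, at -0.31 and -0.44, and *Pde4d*, at -0.14 and -0.61, were lower by less than 2-fold. All 3 collagen V genes were higher in both dystrophic libraries. *Col5a2* was at least 2-fold higher in both, as were 5.19% of all genes in *mdx* and 5.63% in D2-*mdx*. It was at 128, 362, 131 and 347 CPM in the same order, with log2 ratios of 1.5 (1.43 to 1.57) and 1.40 (1.32 to 1.47). Over the low class as a whole, the genes of the ligand and of the receptor *Calcr* thus differed in opposite directions. Collagen V was not read without the matrix-expressing cells, and whether both differences lie in the same cells was not tested.

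Of 11 natriuretic peptide genes, 3 were tested in *mdx*, and 2 in D2-*mdx*. The receptor gene of the *Nppc* peptide, *Npr2*, was at 22.2 CPM in B10 and 10.8 in *mdx*, and at 16.5 in DBA and 11.8 in D2-*mdx*, log2 ratios of -1.04 (-1.29 to -0.80) and -0.48 (-0.78 to -0.18). *Mme*, which encodes the peptide-degrading neprilysin, was at 0.22, 10.8, 0.716 and 9.89 CPM, higher in both dystrophic libraries. It passed the minimum only through *mdx*, where it is high, and was not tested in D2-*mdx*. *Prkg2*, a kinase activated by cyclic GMP, had 0 UMIs in the low class of both healthy libraries, 7.89 CPM in *mdx* and 8.62 in D2-*mdx*, and reached 29.3 and 61.6 CPM in their dividing cells. *Furin*, a protease that cleaves precursors of this kind, differed little, at 0.19 and 0.34. Of the endothelin genes, only the converting enzymes *Ece1* and *Ece2* of 6 listed reached 10 CPM. *Ece1* was at 28.0 CPM in B10 and 39.0 in *mdx*, and 28.3 in DBA and 88.4 in D2-*mdx*, at least 2-fold higher in D2-*mdx* with a log2 ratio of 1.64 (1.48 to 1.80). No other tachykinin or receptor gene of 5 listed and not *Layn*, the relative of *Chodl*, reached 10 CPM in a class.

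Among chordin and BMP genes, 6 of 14 were tested. *Chrd*, the family's founding BMP antagonist, was lower as well, at 13.6 CPM in B10 and 2.70 in *mdx*, and 13.7 in DBA and 3.38 in D2-*mdx*, with log2 ratios of -2.33 (-2.78 to -1.90) and -2.01 (-2.54 to -1.52). It passed the minimum only through the healthy libraries, where it is high. *Bmp4* differed by background, at 178 and 87.7 CPM in B10 and *mdx*, a log2 ratio of -1.02 (-1.11 to -0.94), and at 136 and 191 CPM in DBA and D2-*mdx*, a log2 ratio of 0.49 (0.41 to 0.58). *Twsg1*, a secreted regulator of BMPs, was at -0.77 and -0.67, and the receptor genes *Bmpr1a* and *Bmpr2* were at -0.58 and -0.45 in *mdx* and -0.28 and -0.53 in D2-*mdx*. *Bmp1* was higher in both dystrophic libraries, with log2 ratios of 0.31 (0.18 to 0.44) in *mdx* and 0.55 (0.39 to 0.71) in D2-*mdx*.

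Other genes known for quiescence were read beside the 6. They were also listed with earlier results of these libraries known, so their counts against all genes are a description. Of 20, 19 were tested and 4 were at least 2-fold lower in each disease comparison, where 6.3% and 6.61% of all genes were. None was 2-fold higher, against 5.19% and 5.63%, and the median log2 ratio was -0.56 in *mdx* and -0.51 in D2-*mdx*. The 4 were *Cd34*, *Cxcr4*, *Tek* and *Gas1*. *Tek*, the angiopoietin receptor, had log2 ratios of -2.0 and -2.22, the chemokine receptor gene *Cxcr4* -1.42 and -1.68, the sialomucin gene *Cd34* -1.84 and -1.3 and the growth arrest gene *Gas1* -1.25 and -1.74. *Vcam1* and *Cdh15*, both of cell adhesion, were higher instead, at 0.77 and 0.87 and at 0.79 and 0.79. Of this list, *Vcam1* and *Itga7* encode proteins used in the sort, and *Pax7* and *Cdh15* were used in the gates. The counts and medians thus include genes by which the cells were chosen. The Notch target genes *Heyl* and *Hes1* were at -0.56 and -0.61 in *mdx* and at -0.50 and -0.54 in D2-*mdx*. *Hey1*, another such gene, differed little in *mdx*, at -0.16 (-0.26 to -0.06), and more in D2-*mdx*, at -0.87.

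Finally, the genes with the most similar pattern were found by Pearson's r of log2(CPM + 1) over the 16 sums of 4 classes in 4 libraries, among 8882 genes. These sums share libraries, and those of B10 dividing and Myog-positive cells hold 4 and 9 cells, so r is a description. *Chodl* was most like *Ror1* (0.996), *Pax7* (0.97) and *Serping1* (0.97), and *Calcr* like *Entpd2* (0.99), *Crim1* (0.97) and *Xbp1* (0.96). *Nppc* was most like *Ensa* (0.97), *Filip1l* (0.96) and *Abca8b* (0.96), and *Edn3* like *Hmcn2* (0.98), *Pde3a* (0.97) and *Gabbr1* (0.97). *Tac4* and *Chrdl2* both had *Thbs2* first, at 0.95 and 0.97, followed by *Pvrl1* (0.95) and *Dis3l2* (0.94) for *Tac4* and *Abca8b* (0.97) and *Gstm1* (0.96) for *Chrdl2*. Over the 14 sums of at least 20 cells the first of each stayed between 0.95 and 0.996. *Thbs2*, which encodes the matricellular protein thrombospondin-2, was at 66.2 CPM in B10 and 10.1 in *mdx*, and 72.7 in DBA and 15.2 in D2-*mdx* in low immediate-early cells. *Entpd2*, which encodes an enzyme that breaks down extracellular ATP, was at 51.2, 22.1, 39.0 and 20.3 CPM. Among the 6 genes themselves, r over the 16 sums ranged from 0.69 for *Calcr* with *Tac4* to 0.94 for *Nppc* with *Chrdl2*.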

How the data were processed

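UMIs per gene and barcode were deposited by the authors as whole, unnormalized counts, 1 matrix per strain, made from 10X Genomics 3′ V3.1 reads with Cell Ranger 3.0.1 on mm10, per the labels and the study's methods. Whether the deposited barcodes were filtered first is not given in the sources used here. A cell was kept if it had from 1000 to 5000 genes and no more than 8% of its UMIs from mitochondrial genes, which left 37016795 UMIs in all for DBA, 41582536 for B10, 48172035 for D2-*mdx* and 52742197 for *mdx*. Scrublet in scanpy 1.11.5, at an expected doublet fraction of 0.008 for each 1000 cells of a library, removed that fraction with the highest scores, 2.70% to 5.34% of cells.

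A cell was myogenic with at least 2 UMIs of *Pax7*, *Myf5*, *Myod1*, *Myog*, *Cdh15* and *Fgfr4* and more of these than of 36 markers of 7 other types. Cells of other types had at least 5 UMIs of 1 such list, more than of any other. The classes in the report divide the myogenic cells, apart from 29, 373, 26 and 277 without a *Pax7* UMI in B10, *mdx*, DBA and D2-*mdx*.

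UMIs were summed per class and scaled to CPM. CPM have exact Poisson intervals, shares exact binomial (Clopper-Pearson) intervals, and log2 ratios one from the exact binomial share of the first count in the sum of both, and their width shows the precision that depth gives. A count of 0 took a floor of 3 counts. The intervals of log2 ratios were checked on counts simulated as Poisson, which hold no spread between cells or mice. Shares of all genes past 2-fold use genes with at least 10 CPM in a low class of the pair. Other settings tried were library sizes from TMM (edgeR 4.0.16) and DESeq2 1.42.0, per-cell scaling, other filters, gates and depths, and no matrix-expressing cells. Python 3.11.15 with numpy 2.4.6, scipy 1.17.1, pandas 2.3.3 and matplotlib 3.10.9 and R 4.3.3 were used, with positions from GENCODE M21 and upstream sequence from RefSeq for 5 of the 6 genes (GRCm38.p6).

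The text names the 6 genes, genes of the pathway lists with at least 10 CPM in a class (*Ednrb*, *Tacr1* and *Layn*, below it, as partners only), and the 3 genes of the most similar pattern for each of the 6. The members and lists were chosen with earlier results of these data known.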

Additional observations from a re-analysis of the deposited data

Results flagged for a closer look

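Some ratios pointed in opposite directions in the healthy and the dystrophic libraries, or in the 2 backgrounds. Each contrast is a comparison within 1 library or between 2 libraries, and the difference between the contrasts was not tested.

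The log2 ratio of high over low immediate-early cells was negative in both healthy libraries and positive in both dystrophic ones, with intervals away from 0 in all 4, for 4 of the 6 genes. For *Tac4*, the tachykinin gene, it was -0.29 for B10, -0.15 for DBA, 2.0 for *mdx* and 1.00 for D2-*mdx*. For the receptor gene *Calcr*, with healthy before dystrophic libraries, it was -0.20 and -0.23, against 0.74 and 0.71. For *Edn3* it was -0.24 and -0.058, against 0.55 and 0.75, and for *Chodl* -0.25 and -0.10, against 0.53 and 0.65. In the dystrophic libraries the low class was also the deeper one and held more matrix-expressing cells. Without these cells the ratios in *mdx* and D2-*mdx* were 1.3 and 0.39 for *Tac4*, 0.29 and 0.43 for *Calcr*, 0.16 and 0.42 for *Edn3* and 0.17 and 0.33 for *Chodl*, smaller and in the same direction. As UMIs per cell rather than CPM, *Edn3* and *Chodl* were nearly level between the low and high cells of *mdx*, as given above. The part of depth was not tested.

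In high immediate-early cells, *Chodl* was higher in *mdx* than in B10, with a log2 ratio of 0.26, and lower in D2-*mdx* than in DBA, with -0.14.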

How the results depend on the processing

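No paired analysis was run, because each group is 1 library and each background holds 1 dystrophic and 1 healthy library. The 12 log2 ratios of the 6 genes between dystrophic and healthy low immediate-early cells kept their direction under all 9 alternatives, and 42 of the 108 values moved by less than counting error, among them all 12 with doublets kept. Those that moved by more follow, with *mdx* over B10 before D2-*mdx* over DBA. Without matrix-expressing cells they were *Nppc* -2.16 and -1.78, *Edn3* -1.50 and -1.18, *Tac4* -4.97 and -2.26, *Chrdl2* -1.55 and -1.19, *Calcr* -0.57 and -0.79 and *Chodl* -0.14 and -0.58. As the mean of UMIs per 10000 of each cell they were *Nppc* -2.46 and -1.89, *Edn3* -1.66 and -1.21, *Tac4* -5.04 and -2.48, *Chrdl2* -1.87 and -1.31, *Calcr* -0.71 and -0.72 and *Chodl* -0.32 and -0.57. With gates read at 3000 UMIs they were *Nppc* -2.81 and -2.09, *Edn3* -1.83 and -1.37, *Chrdl2* -2.30 and -1.55, *Calcr* -0.87 and -0.87 and *Chodl* -0.42 and -0.75. With the middle of the immediate-early range left out, so that only its outer parts count, they were *Nppc* -3.15 and -2.69, *Edn3* -2.09 and -1.72, *Tac4* -3.36 in D2-*mdx*, *Chrdl2* -2.63 and -2.08, *Calcr* -1.22 in *mdx* and *Chodl* -0.71 and -1.13. With DESeq2 size factors they were *Nppc* -2.83 and -2.23, *Edn3* -1.83 and -1.45, *Chrdl2* -2.31 in *mdx* and *Chodl* -0.42 and -0.82. With TMM library sizes they were *Nppc* -2.84 in *mdx*, *Edn3* -1.83 in *mdx*, *Chrdl2* -2.31 in *mdx* and *Chodl* -0.43 and -0.85. With *Pax7* at 3 UMIs or more they were *Nppc* -3.07 and -2.22, *Chrdl2* -2.69 in *mdx* and *Chodl* -0.56 and -0.82. With at least 500 genes and no upper limit they were *Nppc* -2.41 in D2-*mdx*, *Edn3* -1.60 in D2-*mdx*, *Chrdl2* -1.88 in D2-*mdx* and *Chodl* -0.57 and -0.99. The cause was not tested. With no minimum level, the share of genes at least 2-fold lower was 12.9% in *mdx* and 12.2% in D2-*mdx* in low cells and 9.1% and 9.06% in high cells, against 6.3%, 6.61%, 3.48% and 3.39%, and that of genes 2-fold higher in low cells was 10.4% in *mdx* and 11.2% in D2-*mdx* over the controls and 6.98% in D2-*mdx* over *mdx*, against 5.19%, 5.63% and 1.6%. In high immediate-early cells, alternatives chosen after seeing the data moved 16 of 84 ratios by more than counting error. Of 312 ratios of the other classes over the low class, 24 of them without matrix-expressing cells and added after seeing the data, 94 moved by more than counting error and 1 reversed, that of *Chrdl2* in dividing over low cells of DBA, from -0.53 to 0.027 with gates read at 3000 UMIs. Shares of cells rise with depth, and 130 of 192 moved without thinning or at 2000 UMIs. Depth limits *Tac4* in *mdx* most, with 21 UMIs in its low class, and *Calcr* outside the Pax7-positive cells.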
